A study of Mus musculus with 2 samples.

Results

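CD8 T cells were picked out of single-cell RNA-seq (scRNA-seq) libraries of CD45+ leukocytes from the mouse thalamus by their T cell receptor complex and coreceptor transcripts. A member had 200 to 7500 detected genes, no more than 5% of its unique molecular identifiers (UMIs, each standing for 1 captured transcript) in mitochondrial genes, 2 or more UMIs of *Cd3d*, *Cd3e* and *Cd3g* together and 1 or more of *Cd8a* and *Cd8b1* together, and no UMI of *Cd4*, *Trdc*, *Foxp3* or *Csf1r*. The rule kept 825 of 27418 barcodes, 545 of 12245 in the library given control Ab and 280 of 15173 in the library given anti-CD9 Ab.

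Both libraries came from C57B6/J mice in which the cortex of 1 side had been damaged by ablation (cortical ablation injury, CAI), and cells were collected on day 21. Normal rat IgG (control Ab) or the rat anti-CD9 clone KMC8 (anti-CD9 Ab), both at 1.0 μg/μl, was injected repeatedly into the right thalamus through a cannula from day 7 to day 19. Both groups therefore carried the injury, the cannula and a rat antibody, and no uninjured library entered the comparison. Live CD45+ cells were sorted after blocking of Fc receptors and loaded on the 10x Single Cell 3′ platform (v.3.1). The methods describe pools of 4 mice for the thalamus without repeating the number for the antibody groups, and the study's reporting summary gives an age of 12 weeks for its mice, though not all were of that age, and females in most experiments. The labels give neither age nor sex for these libraries. With 1 library per antibody there were no replicates, so no test was possible: the antibody, the mice in the pool and the library cannot be told apart, and every interval below is a 95% interval that covers counting error only.

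CD8 T cells recognise peptides presented by major histocompatibility complex class I through an αβ T cell receptor, with CD8α and CD8β as the coreceptor, and kill target cells by releasing perforin and granzymes. Resting naive and central memory cells circulate through lymphoid organs with the help of the chemokine receptor CCR7. Tissue-resident memory cells stay in organs, the brain included, and are marked by CXCR6, CD69 and the integrins CD103 (encoded by *Itgae*) and CD49a (*Itga1*).

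Of the 11690 quality-passing cells of the control Ab library, CD8 T cells were 4.66% (4.29 to 5.06%). They were 1.94% (1.72 to 2.18%) of the 14455 in the anti-CD9 Ab library. Among cells with 2 or more Cd3 UMIs, their share was close in the libraries, 8.58% (545 of 6351) and 8.42% (280 of 3325), a difference of −0.16 percentage points (−1.31 to 1.03). Against Foxp3-negative CD4 T cells, chosen by the mirrored rule (718 and 511 cells), CD8 T cells made up 43.2% (40.4 to 45.9%) under control Ab. Under anti-CD9 Ab they made up 35.4% (32.1 to 38.8%), so the shares differed by −7.75 points (−12.01 to −3.41). Both libraries held many T cells outside these classes. *Trdc*, the constant segment of the δ chain, was seen in 2645 and 1209 Cd3+ cells, and 2146 and 1209 more had no UMI of *Trdc*, *Cd4* or either CD8 chain. Which of the latter were CD8 T cells with an undetected coreceptor cannot be told from these counts.

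The members under control Ab had a median of 1985 UMIs per cell (512 to 15967), and those under anti-CD9 Ab 2888.5 (537 to 20728). Their UMIs summed to 1233123 and 1084000. CD4 T cells differed in depth the same way (1821.5 and 2452). Shares of cells with a UMI are therefore given after each cell was thinned at random to 1000 UMIs, which left out the 20 and 10 members below that depth. Levels are UMIs summed over the cells of a type, scaled to the total UMIs of that type in the library as CPM. Just outside the threshold, cells that met every other criterion but had no Cd8 UMI (1830 and 1055) held *Nkg7* at 434.0 CPM and 495.1 CPM. Members with exactly 1 Cd8 UMI (167 and 63) held it at 1569 and 1119 CPM, and members with 3 or more (267 and 171) at 2156 and 2079 CPM. *Ccl5* was at 832.1 and 1414 CPM just outside and at 3995 and 2187 CPM in members with 1 Cd8 UMI, and *Il17a* at 144.2 and 73.2 CPM against 37.6 and 16.9 CPM. *Trac* was at 841.8 and 670.1 CPM just outside and at 683.2 and 635.4 CPM in members with 1 Cd8 UMI. *Gzma*, encoding granzyme A, was at 60.9 and 324.1 CPM just outside and at 909.0 and 95.6 CPM in those members, so with anti-CD9 Ab it was higher outside. Only 1 barcode was shared by CD8 T cells of the libraries, and 54 by the libraries as a whole.

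Of the markers that the rule did not use, *Trac*, *Nkg7* and *Ccl5* went with the label as a combination. None alone set CD8 T cells apart from both CD4 T cells and NK cells in both libraries. *Trac*, the constant segment of the T cell receptor α chain, stood at 772.8 CPM with control Ab and 675.3 CPM with anti-CD9 Ab. It was at 12.2 and 7.63 CPM in NK cells, which had no Cd3 UMI by rule, and at 887.8 and 823.2 CPM in CD4 T cells. *Nkg7*, a cytotoxic granule membrane protein, stood at 1898 and 1862 CPM, against 359.3 and 515.3 CPM in CD4 T cells and 1920 and 2155 CPM in NK cells. *Ccl5*, a chemokine of antigen-experienced T cells, stood at 4237 and 3920 CPM, against 670.3 and 836.4 CPM in CD4 T cells and 1764 and 4036 CPM in NK cells. At 1000 UMIs per cell *Ccl5* was seen in 83.2% (control Ab) and 76.7% (anti-CD9 Ab) of members and in 5.85% and 9.09% of B cells, which should lack it. The B cells, chosen by *Cd79a* and *Cd79b*, held plasma cell markers at 445378 and 250780 CPM, led by *Igkc*, so fewer of their 1000 UMIs were left for other genes. Of the members, 96.7% and 95.4% had a UMI of *Trac*, *Trbc1* or *Trbc2*. Both coreceptor chains were seen in 51.0% (46.7 to 55.3%) and 59.6% (53.6 to 65.4%), *Cd8a* without *Cd8b1* in 22.6% and 17.5%, and *Cd8b1* without *Cd8a* in 26.4% and 22.9%. A γ chain constant segment (*Trgc1* to *Trgc4*) was seen in 16.9% and 22.5%, most of it *Trgc2* (91 and 102 UMIs). The 3′ chemistry left few reads on variable segments: 9 and 11 UMIs fell on any *Trbv* and 21 and 35 on any *Trav*, the most abundant being *Trav16n* with 0 and 9, so clonality could not be described.

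**Figure D1:**
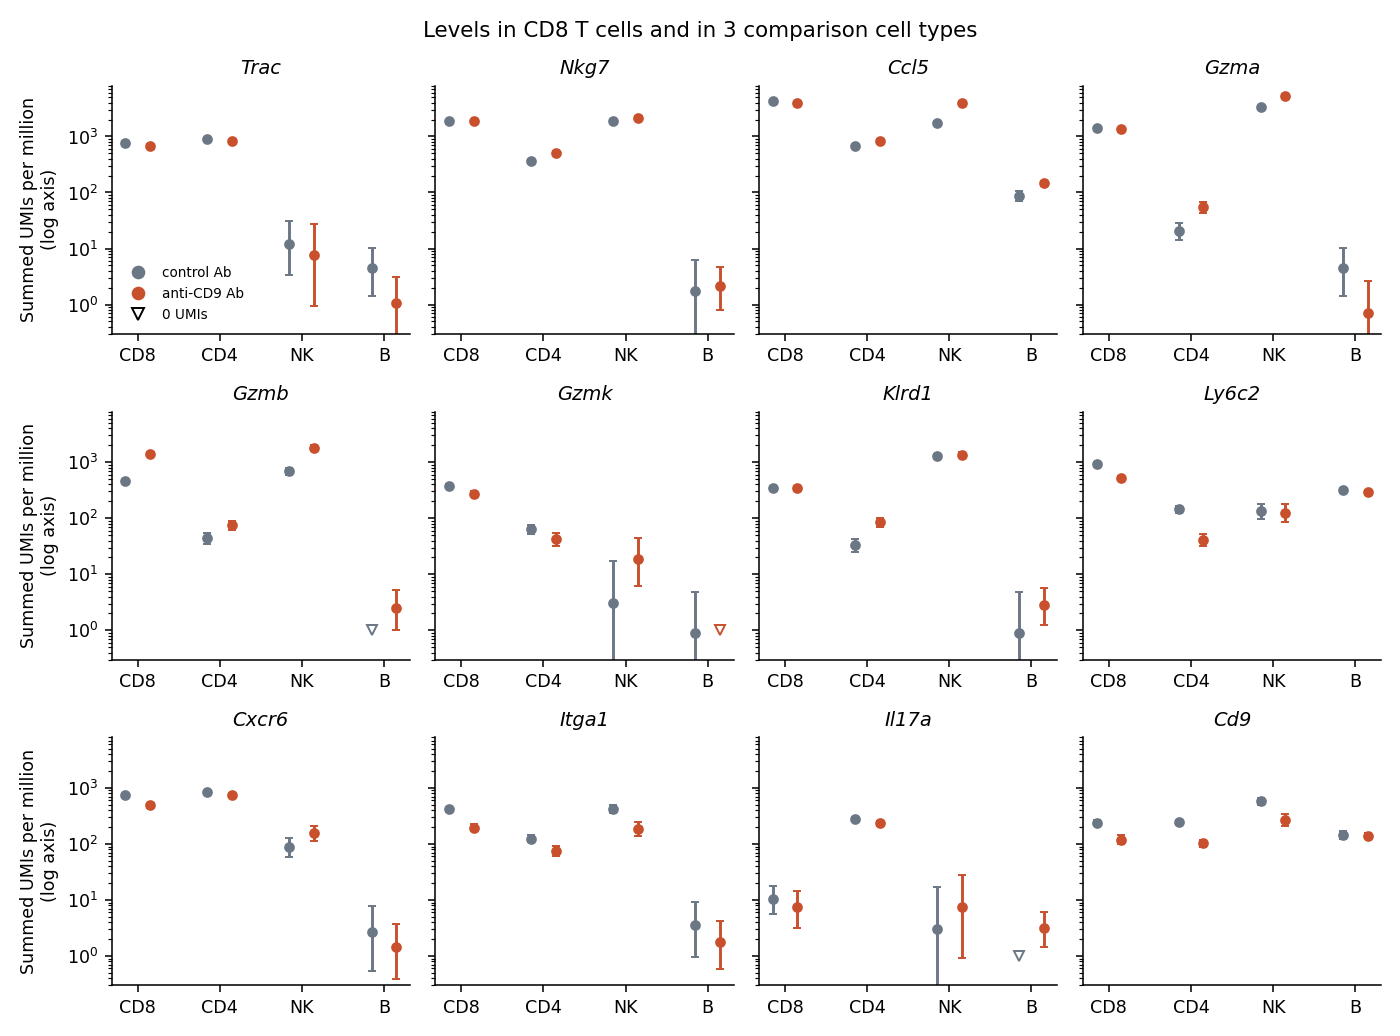
Summed level in CPM (log axis) of 12 genes in CD8 T cells, CD4 T cells, NK cells and B cells with control Ab (grey) and anti-CD9 Ab (orange); error bars are 95% Poisson intervals and open triangles, drawn at 1 CPM, mark 0 UMIs. *Nkg7*, *Ccl5* and the granzymes set CD8 T cells apart from CD4 T cells in both libraries, *Gzmk* from NK cells, and *Il17a* is near the floor of the CD8 T cells.

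Within each library, CD8 T cells were set against CD4 T cells over the 4413 genes with 100 or more UMIs in both types together in each library. Of these, 40 (0.906%) were 2-fold or more higher in CD8 T cells in both libraries, and 100 (2.27%) 2-fold or more lower. The cytotoxic list stood out among those higher, with 6 of its 10 measured genes, followed by the NK-type receptors with 2 of 4. *Gzma* was at 1406 CPM in CD8 T cells and 20.3 CPM in CD4 T cells with control Ab, and at 1339 and 54.2 CPM with anti-CD9 Ab. *Gzmb* (granzyme B) was at 469.5 against 43.5 CPM and at 1424 against 75.3 CPM. *Gzmk* (granzyme K) was at 377.1 against 63.2 CPM and at 274.9 against 42.3 CPM. *Klrk1*, the activating receptor NKG2D, was at 230.3 against 14.3 CPM and at 179.9 against 26.4 CPM. *Ly6c2*, a surface protein of memory CD8 T cells, was at 938.3 against 143.6 CPM and at 525.8 against 41.0 CPM. *Eomes*, a transcription factor of cytotoxic memory cells, had 31 and 29 UMIs in CD8 T cells and none in CD4 T cells.

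The gene highest over CD4 T cells was the noncoding *Gm44174*, with 427 and 388 UMIs in CD8 T cells and 0 in CD4 T cells and NK cells of either library. Against a floor of 3 counts per library this was a log2 ratio of at least 7.50 over CD4 T cells. In the GENCODE vM21 annotation (build GRCm38) it lies between *Cd8b1* and *Cd8a* on the strand of both. *Smyd1*, at 90.02 against 3.57 CPM and at 96.9 against 7.93 CPM, lies on the other side of *Cd8b1* on the opposite strand. Both neighbour the genes that chose the members. *Atp8b4*, *Mctp2* and *Fgf13* completed the 10 highest.

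Genes lower in CD8 than in CD4 T cells were led by *Il17a*, the cytokine of type 17 helper cells, at 10.5 against 280.0 CPM with control Ab and 7.38 against 232.6 CPM with anti-CD9 Ab. The costimulatory molecules *Tnfrsf4* (OX40; 12.2 against 202.0 CPM and 19.4 against 244.4 CPM) and *Cd40lg* (CD40 ligand; 14.6 against 135.2 CPM and 7.38 against 90.5 CPM) were next. *Il17re* (8.92 against 70.3 CPM and 4.61 against 70.7 CPM), a subunit of an interleukin-17 family receptor, and *Maf* (80.3 against 636.9 CPM and 36.9 against 545.7 CPM), a transcription factor of helper T cells, were lower as well.

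NK cells (155 and 109), which had no Cd3 UMI by rule, held little *Trac*. *Trbc1* and *Trbc2*, the constant segments of the β chain, were at 180.4 and 207.9 CPM in NK cells against 674.7 and 1226 CPM in CD8 T cells with control Ab, and at 305.2 and 267.0 against 829.3 and 1293 CPM with anti-CD9 Ab. Over 2437 genes, 66 (2.71%) were 2-fold or more higher in CD8 T cells than in NK cells in both libraries and 69 (2.83%) lower. *Gzmk* was on the CD8 side (377.1 against 3.06 CPM and 274.9 against 19.1 CPM), as was *Themis*, needed for T cell selection in the thymus (1151 against 24.5 CPM and 962.2 against 3.81 CPM). On the NK side were *Gzmc* (6.49 against 608.5 CPM and 21.2 against 2804 CPM) and 6 of 7 NK-type receptors and adaptors besides *Klrb1c* and *Ncr1*, which chose the NK cells. Of the 11 cytotoxic genes measured, 1 (*Gzmk*) was 2-fold or more higher in CD8 T cells in both libraries and 2 were lower. The lower ones were *Gzma* (1406 against 3345 CPM and 1339 against 5341 CPM) and *Prf1* (66.5 against 293.6 CPM and 59.0 against 507.4 CPM).

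**Figure D2:**
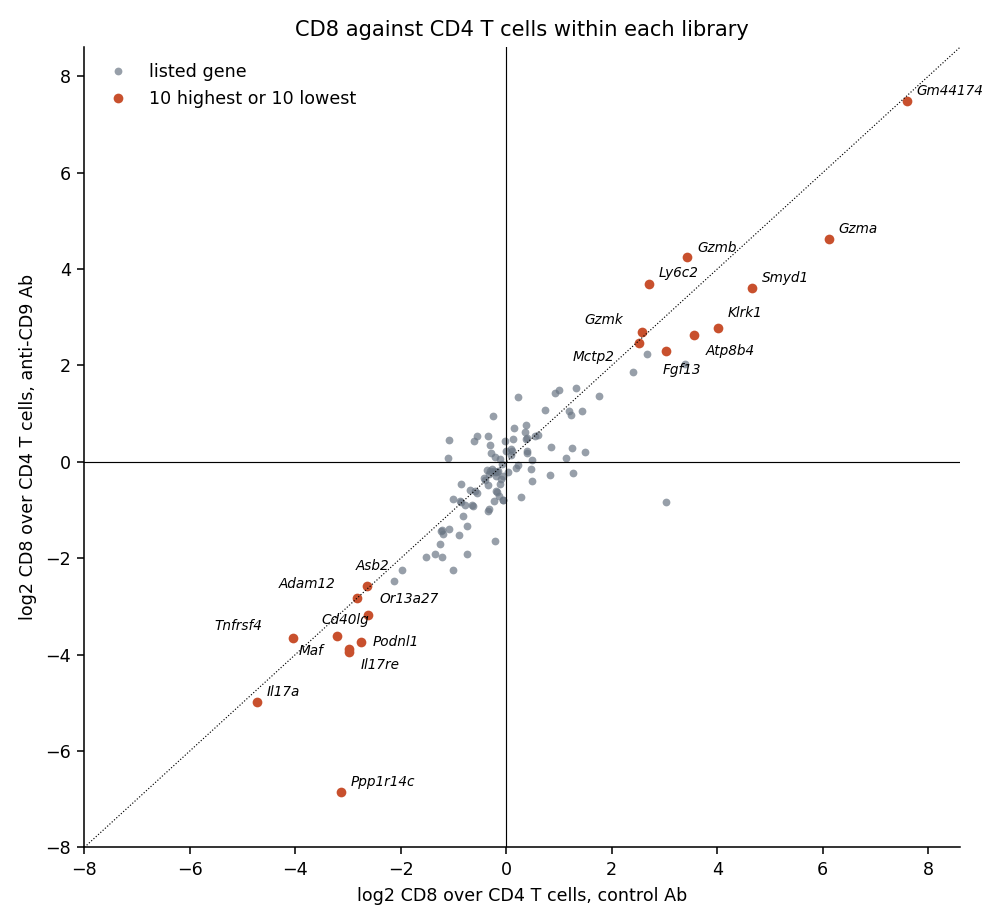
Log2 ratio of CD8 over CD4 T cells with control Ab (x axis) and with anti-CD9 Ab (y axis), for the listed genes with enough UMIs (grey) and the 10 highest and 10 lowest genes (orange); the dotted line marks equal ratios. *Gzma*, *Gzmb* and *Gzmk* are on the CD8 side and *Il17a*, *Tnfrsf4* and *Maf* on the CD4 side in both libraries; *Gm44174*, absent from CD4 T cells, is drawn at its lower bound.

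Between the antibodies, 6463 genes had 50 or more UMIs in CD8 T cells. Of these, 231 (3.57%) were 2-fold or more higher with anti-CD9 Ab and 238 (3.68%) 2-fold or more lower, around a median log2 ratio of −0.05. In CD4 T cells 2.62% and 2.52% of 7624 genes passed the same fold. Cycling genes, *Gzmb* and *Lgals1* were higher with anti-CD9 Ab. Of 9 residency genes 6 were lower, 1 of them past 2-fold, while the median over all genes was itself negative. The residency median of −0.48 was 0.084 without members that held 2 or more UMIs of other lineages.

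The granzymes did not move as a group: of the 12 cytotoxic genes measured, 3 were higher and 9 lower with anti-CD9 Ab, 1 of them past 2-fold, with a median log2 ratio of −0.14. *Gzmb* was that one, at 469.5 CPM in the control Ab library and 1424 CPM in the other, which gave a log2 ratio of 1.60 (1.46 to 1.74). A single cell held 6.04% and 8.81% of its UMIs, and the ratio was 1.56 without that cell in each library and 1.15 without cycling members. *Gzmb* was higher with anti-CD9 Ab in NK cells too (688.0 and 1816 CPM), and in CD4 T cells (43.5 and 75.3 CPM). The summed level of *Gzma*, 1406 and 1339 CPM, differed by less than its counting error (log2 ratio −0.07, −0.17 to 0.03), yet at 1000 UMIs per cell it was seen in 15.4% (control Ab) and 27.8% (anti-CD9 Ab) of members, a difference of 12.3 points (6.33 to 18.7). Its UMIs sat in fewer and fuller cells with control Ab, 96 cells with a median of 7.5 UMIs (1 to 104), than with anti-CD9 Ab, 112 cells with a median of 5 (1 to 98), before thinning. Without members that held 2 or more UMIs of other lineages the log2 ratio of *Gzma* was 0.70. *Gzmk* was lower, at 377.1 and 274.9 CPM (log2 ratio −0.46, −0.67 to −0.25), and was seen in 30.9% and 20%. *Prf1*, encoding perforin, was at 66.5 and 59.0 CPM. *Fasl*, the Fas ligand, was at 137.9 and 77.5 CPM (log2 ratio −0.83, −1.21 to −0.45), and *Cst7*, an inhibitor of granule cathepsins, at 214.1 and 125.5 CPM (−0.77, −1.07 to −0.47).

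Combinations of granzymes showed where *Gzmk* was lower. Cells with *Gzmk* alone were 20.2% of members under control Ab (16.8 to 23.9%) and 5.19% under anti-CD9 Ab (2.86 to 8.55%). Cells with *Gzma* alone were 4.38% and 8.89%, cells with *Gzma* and *Gzmb* 4% and 9.26%, and cells with all 3 granzymes 4% and 6.67%. No granzyme was seen in 54.3% and 54.1%. *Gzma*+ cells also carried *Gzmb* more often than the other members: 51.9% (40.5 to 63.1%) against 11.9% (9.07 to 15.3%) under control Ab, and under anti-CD9 Ab 57.3% (45.4 to 68.7%) against 17.9% (12.8 to 24.1%). With control Ab, *Gzma*+ cells carried *Itgae* in 24.7% against 9.91% of the other members and *Tox*, a transcription factor of chronically stimulated T cells, in 8.64% against 37.4%. With anti-CD9 Ab these shares were 6.67% against 5.64% for *Itgae* and 36% against 27.7% for *Tox*. *Gzma* was chosen to divide the cells after its values were seen. *Gzmb*, *Itgae* and *Tox* are named from a longer set of compared genes. Others, among them *Klrd1*, *Klrc1* and *Ly6c2*, also differed beyond counting error with control Ab and are not shown.

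**Figure D3:**
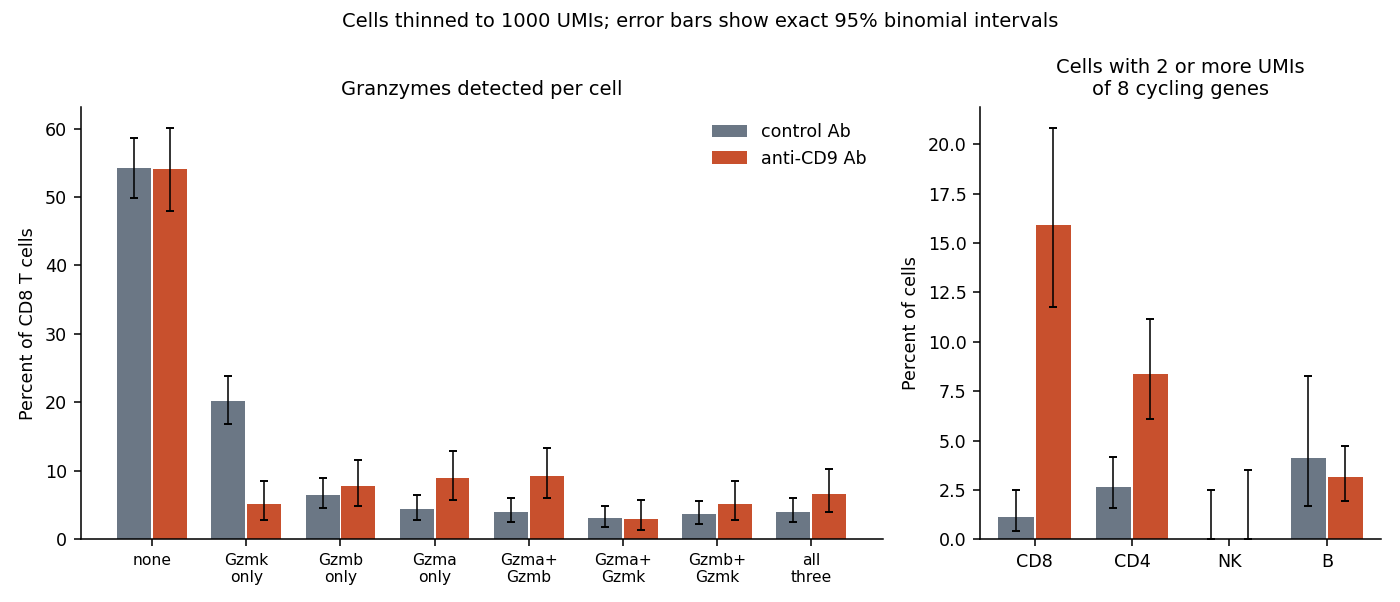
Left, percent of CD8 T cells with each combination of *Gzma*, *Gzmb* and *Gzmk*; right, percent of CD8, CD4, NK and B cells with 2 or more UMIs of 8 cycling genes; all cells were thinned to 1000 UMIs, and error bars are exact 95% binomial intervals. The *Gzmk*-only class holds 20.2% (control Ab) and 5.19% (anti-CD9 Ab) of members, and cycling CD8 T cells stand at 1.14% and 15.9%.

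Cycling genes were the list furthest from the rest. All 12 were higher with anti-CD9 Ab, 11 of them past 2-fold, with a median log2 ratio of 2.92 against −0.05 for all genes, and in CD4 T cells 11 of 12 passed the fold with a median of 1.52. Without members that held 2 or more UMIs of other lineages the CD8 median was 0.60, over the 2 genes that still reached 50 UMIs. *Mki67*, the proliferation antigen Ki-67, was at 23.5 CPM with control Ab (15 cells) and 179.9 CPM with anti-CD9 Ab (47 cells). *Top2a*, the topoisomerase that untangles replicated chromosomes, was at 40.5 and 305.4 CPM (20 and 58 cells). *Ccnb2*, a mitotic cyclin, was at 5.68 and 110.7 CPM (4 and 45 cells). *Cdk1*, the mitotic kinase, was at 5.68 and 102.4 CPM (6 and 37 cells). Counted per cell, members with 2 or more UMIs of 8 cycling genes at 1000 UMIs per cell numbered 6 of 525 under control Ab (1.14%, 0.421 to 2.47%). Under anti-CD9 Ab they numbered 43 of 270 (15.9%, 11.8 to 20.8%), which is 14.8 points more (10.7 to 19.7). The 8 genes and this limit were chosen after their values were seen. Those shares were 2.67% and 8.37% in CD4 T cells, 4.09% and 3.13% in B cells and 0% in NK cells (0 of 146 and 0 of 103). Without thinning, 9 and 64 members cycled, at medians of 4338 and 6142.5 UMIs against 1967 and 2701 in the others. In the others *Gzmb* was at 463.98 and 1032 CPM. The 10 highest genes between the antibodies included *Ccnb2*, *Cdk1*, *Ube2c*, *Ccna2* and *Tpx2*, all of the cell division cycle.

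Because the cycling genes moved together, the promoter of *Ccnb2* is shown, with the CCAAT box (CCAAT) and the cell-cycle homology element (TTTGAA) in capitals, both searched on both strands. It spans 250 bases before to 50 after the start, from RefSeq, build GRCm38.p6, chr9:70421505-70421804, minus strand.

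Ccnb2: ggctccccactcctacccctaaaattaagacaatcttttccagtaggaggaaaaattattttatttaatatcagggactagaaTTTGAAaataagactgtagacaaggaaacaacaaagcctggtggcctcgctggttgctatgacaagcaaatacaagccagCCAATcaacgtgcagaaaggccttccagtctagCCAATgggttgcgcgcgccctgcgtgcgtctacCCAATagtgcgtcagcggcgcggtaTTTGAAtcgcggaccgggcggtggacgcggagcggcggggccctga

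This window holds 3 CCAAT and 2 TTTGAA matches. Of the 12 cycling genes, 11 had a window in the table, 9 of these with CCAAT and 5 with TTTGAA (*Ccnb2*, *Cdk1*, *Hmgb2*, *Mki67* and *Top2a*), against 37.4% and 17.9% of 32851 promoter windows of that length. A gene counted with a match in any of its windows, whereas the background counts single windows, so the measures are unlike. A match describes the letters of the window and is not evidence of binding.

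Of the 9 residency genes measured, 6 were lower with anti-CD9 Ab, 1 of them past 2-fold, and 3 higher. Their median log2 ratio was −0.48, against −0.05 over all genes in CD8 T cells and −0.11 for the list in CD4 T cells. The residency median in CD8 T cells was −0.28 with each cell weighted equally and −0.24 without cycling members. It was −0.21 without the 10% of members with most UMIs and 0.084 without members that held 2 or more UMIs of other lineages. *Itga1* was at 423.3 CPM with control Ab and 194.6 CPM with anti-CD9 Ab (log2 ratio −1.12, −1.35 to −0.89), and was seen in 29.7% and 18.5% of cells. *Itgae* was at 165.4 and 93.2 CPM (−0.83, −1.17 to −0.48), seen in 12.2% and 5.93%. *Cxcr6* was at 733.9 and 486.2 CPM (−0.59, −0.75 to −0.44), seen in 50.9% and 40.0% (a difference of −1.37 points without thinning), and *Cd69* at 173.5 and 121.8 CPM (−0.51, −0.82 to −0.20). For *Cd69* the ratio was −0.04 at the mitochondrial limit of 2% and 0.96 without members that held 2 or more UMIs of other lineages. The ratio of *Itga1* was −0.92 without cycling members. *Runx3*, a transcription factor of the CD8 lineage, was higher, at 271.7 and 402.2 CPM (0.57, 0.36 to 0.77). The ratio of *Cxcr6* was −0.25 without cycling members. These falls were not particular to CD8 T cells. In CD4 T cells *Itga1* was at 124.5 and 75.3 CPM, *Itgae* at 100.1 and 44.3 CPM, *Cd69* at 163.3 and 101.1 CPM and *Cxcr6* at 828.8 and 754.5 CPM. NK cells held *Itga1* at 418.9 and 186.9 CPM and *Cd69* at 100.9 and 57.2 CPM, whereas *Cxcr6* was higher there with anti-CD9 Ab, at 88.7 and 156.4 CPM.

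Transcripts of naive and central memory cells summed to 973.1 CPM under control Ab and to 1462 CPM under anti-CD9 Ab. All 8 measured genes were higher with anti-CD9 Ab, 3 past 2-fold, with a median log2 ratio of 0.69, against 0.88 in CD4 T cells. Most of the sum came from genes within 2-fold. *Il7r*, the interleukin-7 receptor α chain, was at 328.4 and 373.6 CPM (log2 ratio 0.19, −0.01 to 0.38). The ratio of *Il7r* was 0.90 at the mitochondrial limit of 2%, 0.73 without cycling members and 0.65 with each cell weighted equally. The chromatin organiser *Satb1* was at 205.2 and 308.1 CPM (0.59, 0.35 to 0.82, but 0.13 under a stricter rule of 3 Cd3 and 2 Cd8 UMIs and 0.078 where *Cd8b1* was required), and *Lef1*, a transcription factor akin to TCF-1, at 172.7 and 226.0 CPM (0.39, 0.12 to 0.65). *Klf2*, a factor that maintains exit from tissue, was at 48.7 and 145.8 CPM (log2 ratio 1.58, 1.15 to 2.01), seen in 4% and 10.0% of cells, and *Tcf7*, encoding TCF-1 of naive and stem-like T cells, at 55.1 and 113.5 CPM (1.04, 0.61 to 1.47). At the mitochondrial limit of 2% these ratios were 0.86 and −0.12, and without members that held 2 or more UMIs of other lineages that of *Klf2* was −0.12. *Ccr7*, the lymphoid homing receptor, had 11 UMIs in each library. *Igfbp4*, a transcript of naive T cells, had 0 and 24 UMIs in 0 and 10 cells, at least 9.10-fold higher against a floor of 3 counts in the library.

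The effector and circulating memory list was divided, with 6 of 10 measured genes higher and 4 lower. *Lgals1*, encoding galectin-1, was at 197.9 CPM with control Ab and 937.3 CPM with anti-CD9 Ab (log2 ratio 2.24, 2.04 to 2.45), seen in 14.9% and 39.3% of members, and the ratio was 1.91 without cycling members. It was higher in CD4 T cells too, at 302.7 and 697.6 CPM, in NK cells at 140.7 and 457.8 CPM and in B cells at 59.8 and 101.3 CPM. *S100a6*, a calcium-binding protein of effector cells, was at 858.0 and 1521 CPM (0.83, 0.71 to 0.94), and *S100a4* at 270.9 and 383.8 CPM (0.50, 0.29 to 0.71). *Ly6c2* was lower, at 938.3 and 525.8 CPM (−0.84, −0.98 to −0.69). *Cx3cr1*, the fractalkine receptor of effector T cells and also of microglia, had 41 and 15 UMIs and stood at 48.3 and 26.4 CPM in CD4 T cells. The 6 microglia markers summed to 1004 and 330.3 CPM in CD8 T cells, and their part in the *Cx3cr1* counts was not tested. Among the integrin chains of the list, *Itgb1*, the β1 chain that pairs with CD49a, was at 531.2 and 255.5 CPM (log2 ratio −1.06, −1.26 to −0.85, and −0.61 without cycling members), *Itga4* at 562.8 and 699.3 CPM (0.31, 0.16 to 0.46) and *Itgb7* at 206.0 and 236.2 CPM (0.20, −0.05 to 0.45). The ratio of *Itga4* was 0.013 without cycling members, −0.027 without the 10% of members with most UMIs, −0.087 with each cell weighted equally and −0.72 without members that held 2 or more UMIs of other lineages. That of *Itgb7* was −0.072 at the mitochondrial limit of 2% and 0.042 with equal weight. *Klrg1*, a marker of terminal effector cells, had 14 and 6 UMIs. The list's median of 0.23 turned to −0.022 when each cell was weighted equally.

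Among cytokines and chemokines 4 of 8 measured genes were higher and 4 lower. *Tnf* was at 136.2 and 48.0 CPM (log2 ratio −1.51, −1.95 to −1.06), and *Ifng*, encoding interferon-γ, at 60.8 and 83.9 CPM (0.46, 0.02 to 0.91). For *Ifng* it was 0.21 without the top cell of each library, 1.65 at the mitochondrial limit of 2% and 2.07 without members that held 2 or more UMIs of other lineages. *Xcl1*, a chemokine that attracts cross-presenting dendritic cells, was at 268.4 and 74.7 CPM (−1.84, −2.20 to −1.49), with 39.3% of its control UMIs in 1 cell and a ratio of −1.53 without the top cells. The ratio was −0.99 without the 10% of members with most UMIs, −3.22 under the stricter rule of 3 Cd3 and 2 Cd8 UMIs, −4.20 where *Cd8b1* was required and −4.24 without members that held 2 or more UMIs of other lineages. *Ccl3* was at 56.8 and 304.4 CPM, with 47.6% of its anti-CD9 UMIs in 1 cell, and the log2 ratio of 2.42 was 0.57 without cycling members. Of 9 chemokine receptors 4 reached 50 UMIs. *Ccr9*, the receptor for CCL25 known from gut homing, was at 12.98 and 94.1 CPM (2.86, 2.10 to 3.62), in 9 and 42 cells, while it was at 44.7 and 32.4 CPM in CD4 T cells. At the mitochondrial limit of 2% its ratio in CD8 T cells was 0.086. *Cxcr3*, an inflammatory chemokine receptor, was at 248.2 and 190.0 CPM (−0.38, −0.64 to −0.13).

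Checkpoint genes were divided, 6 of 12 higher and 6 lower, with a median log2 ratio of −0.02, against 0.80 in CD4 T cells. *Pdcd1*, encoding PD-1, was at 56.0 and 104.2 CPM (0.90, 0.47 to 1.33) and *Tnfrsf9*, encoding 4-1BB, at 31.6 and 69.2 CPM (1.13, 0.57 to 1.69), or 0.48 without cycling members. *Tox* was at 676.3 and 620.8 CPM (−0.12, −0.27 to 0.02), and *Lag3* at 56.0 and 42.4 CPM (−0.40, −0.94 to 0.14), or 0.015 at the mitochondrial limit of 2%. NK-type receptors stayed within 2-fold: *Klrd1*, encoding CD94, was at 347.9 and 345.0 CPM, and *Klrc1*, its partner NKG2A, at 100.6 and 70.1 CPM (−0.52, −0.93 to −0.11), or −0.25 with each cell weighted equally and −0.13 without cycling members. The T cell receptor and signaling list, without the 3 Cd3 genes that chose the members, did as well, with 4 of 13 genes higher and 9 lower and a median of −0.19, against −0.04 in CD4 T cells. In the NK-type list the ratio of *Fcer1g* passed 2-fold at the mitochondrial limit of 2% (1.15). That of *Klrd1* was 0.84 without members that held 2 or more UMIs of other lineages. Of the 7 immediate-early and heat shock genes measured, 3 were higher and 4 lower, and *Dusp1*, a phosphatase induced by stress, was at 14.6 and 66.4 CPM (2.19, 1.44 to 2.93).

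**Figure D4:**
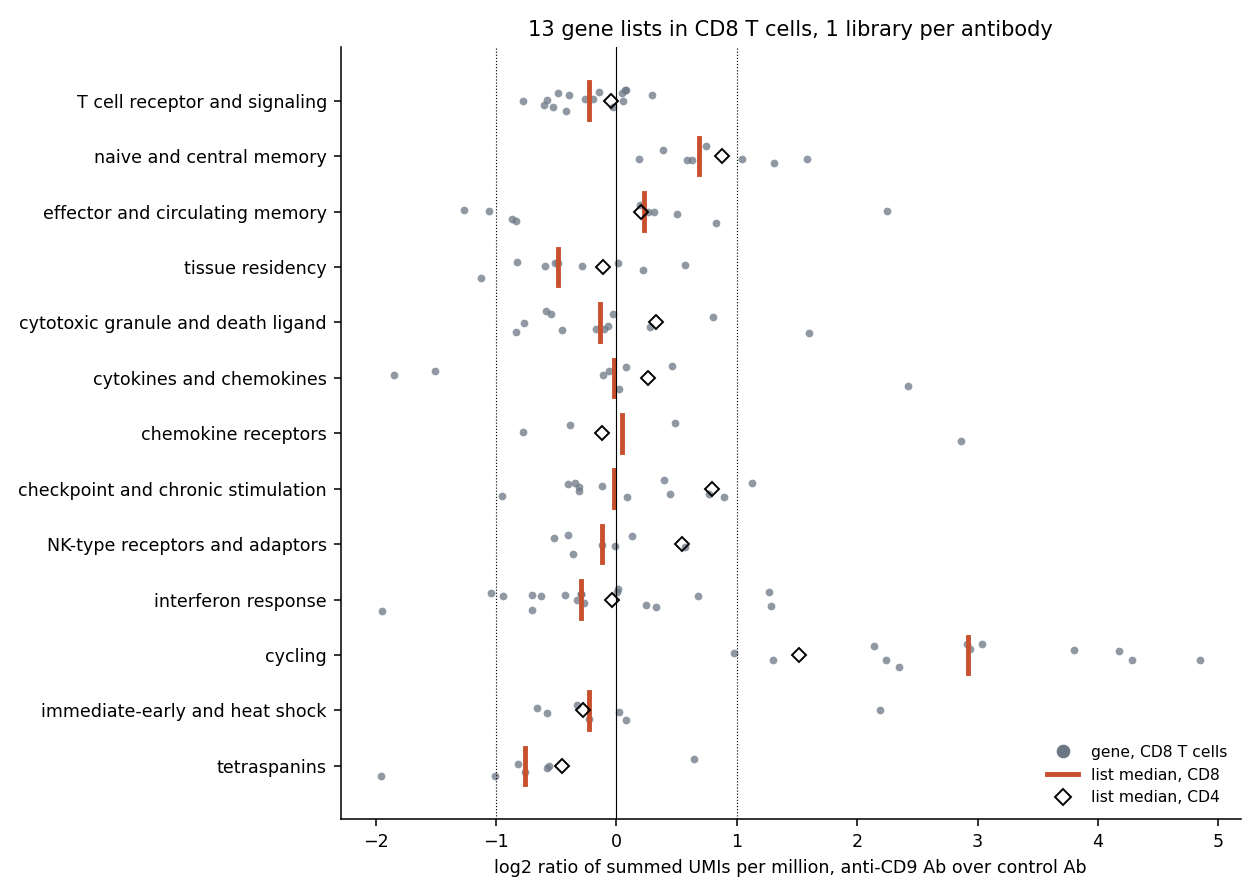
Log2 ratio of anti-CD9 Ab over control Ab for each measured gene of 13 lists in CD8 T cells (points), with the list median in CD8 T cells (bar) and in CD4 T cells (diamond); dotted lines mark 2-fold. The cycling list sits to the right, with a median of 2.92, and every naive and central memory gene is above 0, while most residency genes and tetraspanins are below it.

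Interferon-stimulated genes did not move together. Of 18 genes, 7 were higher with anti-CD9 Ab (2 past 2-fold) and 11 lower (2 past 2-fold), with a median log2 ratio of −0.30. *Ifit3*, an antiviral protein induced by type I interferon, was at 195.4 CPM with control Ab and 50.7 CPM with anti-CD9 Ab (log2 ratio −1.95, −2.37 to −1.52), and seen in 16% and 4.81% of members. In CD4 T cells it was at 89.4 and 48.2 CPM. *Ifit1* was at 117.6 and 57.2 CPM (−1.04, −1.47 to −0.61). At the mitochondrial limit of 2% the ratios of *Ifit3* and *Ifit1* were −1.22 and −0.17, and without members that held 2 or more UMIs of other lineages 0.20 and 0.78. *Gbp2*, a guanylate-binding protein induced by interferon-γ, was at 50.3 and 122.7 CPM (1.29, 0.85 to 1.72), and *Ifitm3*, which restricts virus entry, at 75.4 and 181.7 CPM (1.27, 0.91 to 1.62). The ratio of *Ifitm3* was 2.06 with each cell weighted equally and 1.73 without the 10% of members with most UMIs. Both genes were higher with anti-CD9 Ab in CD4 T cells too, *Gbp2* at 52.4 and 151.3 CPM and *Ifitm3* at 141.2 and 522.6 CPM.

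The promoter windows of the *Ifit* genes are shown because both genes were past 2-fold in the same direction; capitals mark GAAA, 2 bases of any kind and GAAA, the core of the interferon-stimulated response element, searched on both strands and here on the reverse one. Both are from RefSeq, build GRCm38.p6, plus strand: *Ifit3* at chr19:34583279-34583578 and *Ifit1* at chr19:34640639-34640938.

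Ifit3: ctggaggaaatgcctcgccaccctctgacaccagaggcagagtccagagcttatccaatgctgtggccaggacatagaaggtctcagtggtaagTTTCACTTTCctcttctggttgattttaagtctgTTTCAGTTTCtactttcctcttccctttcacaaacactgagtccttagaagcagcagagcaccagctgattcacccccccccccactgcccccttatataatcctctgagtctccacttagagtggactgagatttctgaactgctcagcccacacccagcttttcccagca

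Ifit1: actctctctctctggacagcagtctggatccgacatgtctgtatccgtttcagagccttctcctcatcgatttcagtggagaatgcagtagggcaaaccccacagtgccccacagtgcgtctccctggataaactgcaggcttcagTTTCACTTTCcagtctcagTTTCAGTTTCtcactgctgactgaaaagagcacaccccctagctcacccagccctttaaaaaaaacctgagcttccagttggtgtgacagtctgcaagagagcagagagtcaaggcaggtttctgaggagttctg

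Each window holds 2 matches, and 3.44% of 32851 windows hold at least 1. Only 10 of the 18 interferon genes had a window in the table, so no share is given for the list.

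*Cd9*, the target of the antibody, encodes a tetraspanin, a membrane protein that organises other proteins of the cell surface. It was at 240.9 CPM with control Ab and 119.9 CPM with anti-CD9 Ab in CD8 T cells (log2 ratio −1.01, −1.30 to −0.71), at 243.1 and 102.4 CPM in CD4 T cells, at 577.9 and 267.0 CPM in NK cells and at 145.2 and 140.7 CPM in B cells. At 1000 UMIs per cell it was seen in 14.7% (11.8 to 18.0%) and 9.26% (6.08 to 13.4%) of CD8 T cells and in 14.0% and 10.3% of B cells. These B cells include cells of plasma type, which can hold *Cd9* themselves, so they give no background for it, and whether the CD8 share is expression or free RNA was not tested. *Cd81* was at 107.0 and 27.7 CPM (−1.95, −2.52 to −1.38) and *Cd53*, a tetraspanin of leukocytes, at 258.7 and 405.0 CPM (0.65, 0.44 to 0.85). At the mitochondrial limit of 2% the ratio was −0.75 for *Cd9* and −0.74 for *Cd81*, and without members that held 10 or more UMIs of other lineages −0.52 and −2.24. Of 7 tetraspanins measured, 6 were lower and 1 higher, with a median of −0.76. Without members that held 2 or more UMIs of other lineages only *Cd37* (−0.71) and *Cd53* (0.35) still reached 50 UMIs, for a median of −0.18, and the ratios were −0.78 for *Cd9* and −1.19 for *Cd81*. Microglia markers, at 1004 and 330.3 CPM, were lower in the same direction.

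Some transcripts of other cells differed between the libraries in each of the 4 types. *Spp1*, a product of reactive microglia and macrophages, was seen in 58.9% of CD8 T cells, 58.8% of CD4 T cells, 60.3% of NK cells and 39.2% of B cells with control Ab, and in 7.41%, 12.0%, 15.5% and 11.9% with anti-CD9 Ab. *Saa3*, an acute-phase protein, was seen in 1.33%, 1.93%, 0.685% and 0% with control Ab, and in 25.2%, 27.3%, 22.3% and 26.4% with anti-CD9 Ab. The neutrophil gene *S100a9* and the chemokine *Cxcl2* followed *Saa3*, at 0.381% and 0% of CD8 T cells with control Ab and 9.63% and 8.15% with anti-CD9 Ab. These genes took the top places of the list of higher genes, with *Cxcl2* at 1 and 749 UMIs, of which 56.9% lay in 1 cell, and *S100a9* at 8 and 468. The lowest genes included the red cell gene *Hbb-bs*, with 607 and 7 UMIs and 96.7% of the control UMIs in 1 cell. Among the 231 genes 2-fold or more higher, 4 had at least 50% of their UMIs in 1 cell of the higher library, and among the 238 lower genes 26 did.

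The marker lists of other lineages gave the same picture in CD8 T cells. The 6 microglia markers summed to 1004 CPM with control Ab and 330.3 CPM with anti-CD9 Ab. *C1qa* led them under control Ab, and *Siglech* was at 0 under anti-CD9 Ab. The 6 macrophage markers summed to 1285 and 970.5 CPM, led by *Apoe* in both, with *F13a1* at 0 under control Ab. The 5 B cell markers summed to 79.5 and 196.5 CPM, led by *Ighm*. The 5 plasma cell markers summed to 3511 and 5046 CPM, led by *Igkc* and with none at 0, and 1 cell held 82.7% and 87.2% of these. The 4 oligodendrocyte markers summed to 492.2 and 89.5 CPM, led by *Mbp*, with *Mog* at 0 under anti-CD9 Ab, and the 5 neutrophil markers to 19.5 and 723.2 CPM. The 3 neuronal markers had 0 and 2 UMIs, and the 3 astrocyte markers summed to 39.7 and 4.61 CPM. The 3 erythrocyte markers summed to 700.7 and 11.99 CPM, with 95.5% of the control UMIs in 1 cell, and the 5 dendritic cell markers had 31 and 0 UMIs. Among lymphoid lists, the 6 NK cell markers summed to 388.4 and 177.1 CPM, led by *Xcl1*. The 3 γδ T cell markers found, of which *Trdc* was absent by rule, had 7 and 18 UMIs. The 4 regulatory T cell markers summed to 341.4 and 501.8 CPM, led by *Ikzf2*, and the 4 innate-like T cell markers to 60.8 and 85.8 CPM, led by *Slamf6*. The part of these transcripts in the differences above was not tested for every gene. Without the 41 and 39 members with 10 or more UMIs of other lineages the cycling median was 2.41, the residency median −0.41 and the naive and central memory median 0.74. At a limit of 2 such UMIs, which left 74 and 32 members, these medians were 0.60, 0.084 and 1.11, over the 2, 4 and 2 genes that still reached 50 UMIs.

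**Figure D5:**
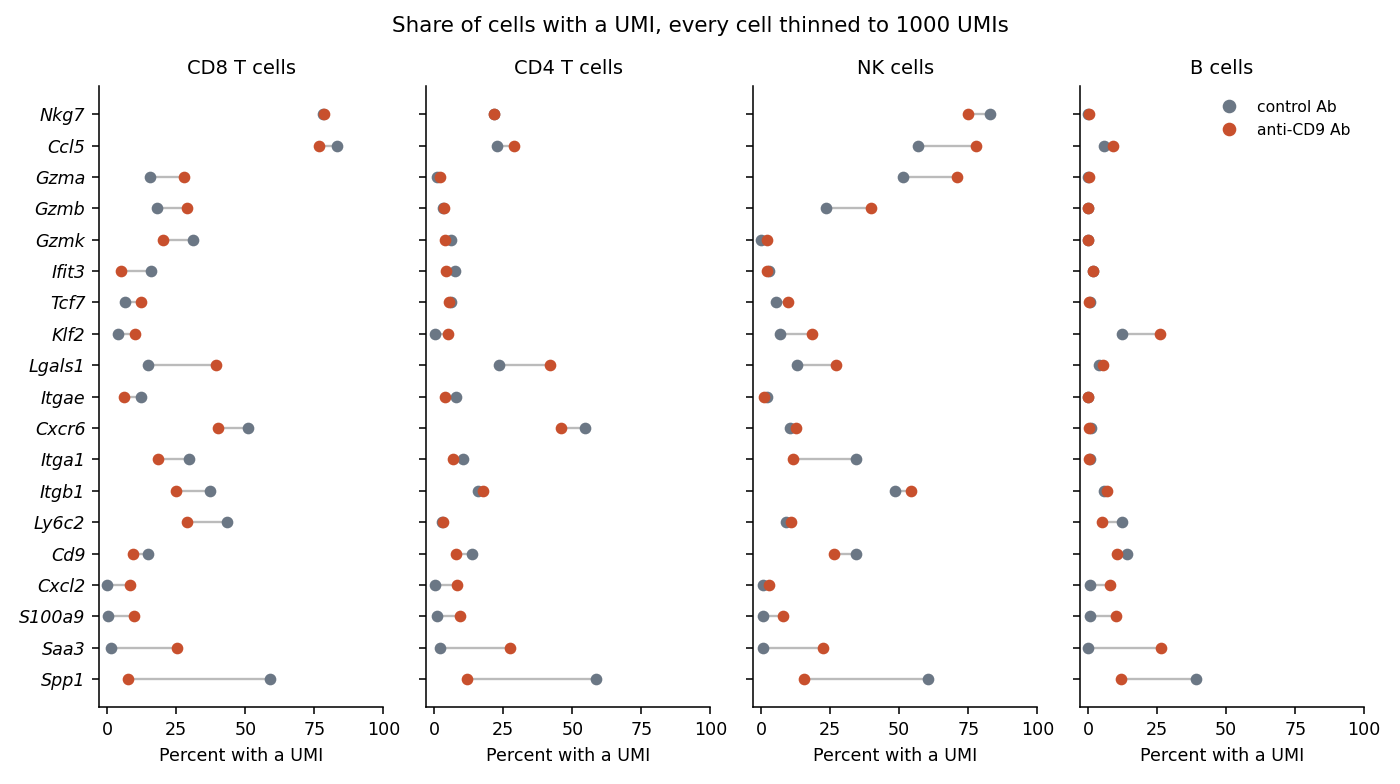
Percent of cells with a UMI of each gene in CD8 T cells, CD4 T cells, NK cells and B cells, with control Ab (grey) and anti-CD9 Ab (orange), every cell thinned to 1000 UMIs. *Spp1* and *Saa3* differ between the libraries in the same direction in each cell type, whereas *Gzmk* is seen mainly in CD8 T cells.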

How the data were processed

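scRNA-seq was made from sorted CD45+ thalamic cells, with 1 library for the control Ab and 1 for the anti-CD9 Ab. The authors deposited raw UMI counts per gene and barcode, as gene by cell matrices. The submitters' processing notes name Cell Ranger 8.0.0 and build GRCm39, while the methods name another version and build. Counts were used as deposited, without integration. The quality limits were 200 to 7500 genes and no more than 5% mitochondrial UMIs, which kept 11690 and 14455 cells. The study's limit of 2% was an alternative. Cell types were set by UMI rules on marker genes: NK cells had 2 or more UMIs of *Ncr1* and *Klrb1c* and no Cd3, and B cells 2 or more of *Cd79a* and *Cd79b* and no Cd3. No doublet caller was run, and members with markers of other lineages or with most UMIs were left out as alternatives.

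UMIs were summed per library and cell type and scaled to CPM. Log2 ratios carry 95% intervals from the Poisson error of both counts, shares have exact binomial intervals and differences of shares Newcombe intervals. A gene was measured with 50 or more UMIs over both libraries. Named genes were all members of 13 lists and the marker lists, the 10 highest and 10 lowest genes with 100 or more UMIs, between antibodies and against CD4 T cells, the leading variable segments, and *Cd9*. *Gzmc*, *Themis* and the *Trgc* genes fall outside this rule and were chosen after their values were seen. Of the γδ T cell markers, 3 of 7 were in the files under the listed symbols. Some genes of these lists, and the co-detection of homing and residency genes, are not reported here. Members and lists were chosen with earlier results of these data known. The interval and thinning steps were tested on simulated data. Python 3.11.15 was used with NumPy 2.4.6, SciPy 1.17.1, pandas 2.3.3 and Matplotlib 3.10.9.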

Additional observations from a re-analysis of the deposited data

Results flagged for a closer look

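*Xcl1* was flagged because its direction differed between T cell types. Its log2 ratio of anti-CD9 Ab over control Ab was −1.84 in CD8 T cells (268.4 and 74.7 CPM) and 2.02 in CD4 T cells (32.8 and 132.8 CPM). With 1 library per antibody the difference was not tested. In CD8 T cells 39.3% of the control UMIs lay in 1 cell. In CD4 T cells 77.6% of the anti-CD9 UMIs lay in 1 cell (156 of 201). Without the cell with most UMIs in each library the ratios were −1.53 in CD8 T cells and 0.18 in CD4 T cells, so the size in CD4 T cells rested on 1 cell. In CD8 T cells the ratio was −0.99 without the 10% of members with most UMIs, −3.22 under the stricter rule, −4.20 where *Cd8b1* was required and −4.24 without members that held 2 or more UMIs of other lineages.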

How the results depend on the processing

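No paired analysis was possible because each antibody had 1 library, and for the same reason no library was left out in turn. The cause was not tested for the shifts below, apart from fewer cells or genes where stated. The limit of 10 UMIs of other lineages and the leaving out of cycling members were chosen after seeing the data. Under the first, shares stayed within their counting interval and list medians within their tolerance, though the difference in share was −3.57 points for *Ccl5* (−6.57 before) and −6.92 for *Gzmk* (−10.9), and the checkpoint median was 0.14 (−0.017) and the NK-type median 0.053 (−0.12).

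The mitochondrial limit of 2% left 240 and 65 members. CD8 T cells were then 36.8% and 24.5% of CD8 plus CD4 T cells (control Ab and anti-CD9 Ab), the cytotoxic median was −0.39, the checkpoint median 0.50, and the differences in share were 6.33 points for *Gzma* and −6.25 for *Ifit3*. Log2 ratios of single genes were then −1.11 for *Gzmk*, 0.17 for *S100a6*, 1.30 for *Satb1* and 4.84 for *Dusp1*. The stricter rule of 3 Cd3 and 2 Cd8 UMIs gave 70.5% and 56.5% with CD4 T cells held to a matching rule (155 and 164 cells), or 34.0% and 29.4% with CD4 T cells as before, a comparison added after seeing the data. It also gave an effector median of 0.45 and −1.89 points for *Cxcr6*. Requiring *Cd8b1* gave 37.0% and 31.1%, and thinning before the rule 53.3% and 41.6%.

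Leaving out members with 2 or more UMIs of other lineages kept 74 and 32 cells, and 1 to 4 genes of each list whose median moved past its tolerance. The share was 35.4% and 27.1%. The residency median reversed to 0.084, and the others that moved were 1.11 (naive and central memory), 0.99 (chemokine receptors), −1.45 (checkpoint), 0.40 (NK-type), 0.35 (interferon), 0.60 (cycling), 0.71 (immediate-early) and −0.18 (tetraspanins). Within their tolerance were 0.028 (cytotoxic, −0.14 before), 0.27 (cytokines and chemokines, −0.021 before), 0.10 (effector, 0.23 before) and −0.23 (T cell receptor and signaling, −0.23 before). Differences in share were −17.0 points for *Ccl5*, 17.3 for *Lgals1* and −3.56 for *Ifit3*. Log2 ratios of single genes were −0.14 for *Cst7*, −2.11 for *Itgae*, −0.63 for *Itga1*, 1.11 for *Satb1*, 1.12 for *Il7r* and 4.70 for *Gbp2*.

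Without cycling members the medians were 1.06 (naive and central memory), −0.39 (chemokine receptors) and 0.12 (cycling, lowered by construction since these genes chose the members left out), and 1.41% of genes were 2-fold or more higher. With cells weighted equally the effector median reversed to −0.022. A minimum of 20 UMIs gave 0.49 for chemokine receptors, and a minimum of 100 left 2.16% of genes 2-fold or more lower. Without the 10% of members with most UMIs, 2.30% of genes were higher and 2.02% lower.

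Depth bore on shares of cells. Without thinning the differences were −0.54 points for *Ccl5*, 22.4 for *Gzma*, −1.37 for *Cxcr6* and 39.3 for *Lgals1*, and at 500 UMIs 6.06 for *Gzma*.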
